A study of Mus musculus with 3 samples.

Results

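The genes described here encode 7 proteins that move ions and water for the production of aqueous humour: the cotransporters Slc12a2 and Slc4a4, the carbonic anhydrases Car2 and Car12, the sodium pump subunit Atp1b1 and the water channels Aqp1 and Aqp4. They were chosen by name, and all 21 probe sets annotated to them, of 34945 non-control probe sets with a single gene (18193 genes), were followed across the arrays. The arrays of the series compare cultured mouse pigment epithelium of 3 sites of the eye: ciliary body (CBPE), retinal (RPE) and iris (IPE) pigment epithelium, with 1 array per culture. All donors were C57BL/6 mice aged 6 to 8 weeks, with no transgene or drug stated, and every culture was left overnight without serum before RNA was taken. CBPE and IPE were grown in RPMI with 10% fetal bovine serum and RPE in DMEM with 20%, so in any comparison with RPE the tissue and its medium cannot be told apart. The labels give cytokeratin-positive cells as above 95% for CBPE and RPE, both after 14 days, and above 99% for IPE, for which no culture time is given. These are explanted cells grown in culture, and markers of other cell types were measured in them, as given with the results. Whether cells of 1 or of several mice went onto an array is not stated.

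Aqueous humour is made by the ciliary epithelium, a pigmented and a non-pigmented cell layer joined by gap junctions. The pigmented layer takes sodium, potassium, chloride and bicarbonate up from the stroma, the ions pass through the junctions, and the non-pigmented layer releases them by the sodium pump and by channels, with water following through aquaporins. Carbonic anhydrases supply the bicarbonate, and drugs that block them lower eye pressure. The retinal pigment epithelium uses many of the same proteins to carry fluid away from the retina, whereas the iris epithelium is not known as a main site of secretion.

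Signals are linear array intensities as deposited. The floor of an array is its median signal (50th percentile) without the controls, 17.3 in CBPE, 16.8 in RPE and 14.5 in IPE, and probe sets for absent bacterial transcripts reached 20.2, 16.6 and 7.9. Where several probe sets read a gene, the one brightest on average (log2, floored) represents it, and differences of at least 2-fold with an array above its floor are counted. A fold against an array at its floor is a lower bound taken over the higher of these 2 limits. With 1 array per culture no test can be made, the culture spread is unknown, and each value stands without a replicate error. The only measurable error is the disagreement between bright probe sets of a gene, with an SD of the log2 difference of 0.49 for CBPE minus IPE, 0.29 for CBPE minus RPE and 0.45 for RPE minus IPE. The control ratio of 3′ to 5′ signal for Actb was 2.26 in CBPE, 2.25 in RPE and 1.503 in IPE, lower in IPE than in the other cultures. In a bulk culture, fewer cells of a type and less RNA per cell cannot be told apart.

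The promoter windows of Slc4a4, Aqp1 and Atp1b1 are shown because these genes had opposite orders over the cultures, with Slc4a4 and Aqp1 highest in IPE and Atp1b1 highest in CBPE by their representing probe sets. Each window runs 5′ to 3′ from 250 bases before to 50 after an annotated start, from RefSeq on GRCm38.p6, and matched by symbol 4 of the 7 genes, these and Car12, had one. On the same assembly Aqp1 spans chr6:55336299-55348555, Slc4a4 chr5:88793858-89239656, Atp1b1 chr1:164437099-164458355, Car2 chr3:14886269-14900770 and Car12 chr9:66712296-66766845. Capitals mark the GC box (GGGCGG) and the CCAAT box (CCAAT), searched on both strands.
Aqp1, chr6:55336049-55336348, plus strand: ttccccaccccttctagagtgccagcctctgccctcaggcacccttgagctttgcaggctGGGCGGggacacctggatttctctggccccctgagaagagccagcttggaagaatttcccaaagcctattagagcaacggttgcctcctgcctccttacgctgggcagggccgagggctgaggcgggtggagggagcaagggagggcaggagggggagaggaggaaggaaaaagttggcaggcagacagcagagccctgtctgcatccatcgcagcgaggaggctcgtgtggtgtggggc
Slc4a4, upstream start, chr5:88887010-88887309, plus strand: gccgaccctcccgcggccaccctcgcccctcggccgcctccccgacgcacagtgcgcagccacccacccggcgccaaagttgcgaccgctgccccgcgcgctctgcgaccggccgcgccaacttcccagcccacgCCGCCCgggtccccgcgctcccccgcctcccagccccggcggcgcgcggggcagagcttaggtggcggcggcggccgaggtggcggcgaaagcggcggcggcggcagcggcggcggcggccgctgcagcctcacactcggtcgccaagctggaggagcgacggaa
Slc4a4, downstream start, chr5:89027716-89028015, plus strand: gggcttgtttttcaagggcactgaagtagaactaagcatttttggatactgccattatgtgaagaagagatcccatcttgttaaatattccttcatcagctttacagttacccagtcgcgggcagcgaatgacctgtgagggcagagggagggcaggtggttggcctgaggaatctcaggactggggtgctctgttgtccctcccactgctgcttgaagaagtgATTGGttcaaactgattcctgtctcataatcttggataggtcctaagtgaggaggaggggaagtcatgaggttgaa
Atp1b1, chr1:164458306-164458605, minus strand: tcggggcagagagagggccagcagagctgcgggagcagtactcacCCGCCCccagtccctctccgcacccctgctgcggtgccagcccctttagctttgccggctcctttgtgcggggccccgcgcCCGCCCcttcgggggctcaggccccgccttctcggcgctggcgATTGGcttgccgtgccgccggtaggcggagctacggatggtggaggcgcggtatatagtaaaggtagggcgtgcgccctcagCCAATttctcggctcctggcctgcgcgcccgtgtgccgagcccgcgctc
Aqp1 held 1 GC box, and the upstream and downstream windows of Slc4a4 held 1 GC box and 1 CCAAT box. Atp1b1 held 2 of each. Of 32851 windows of this length in the table, 35.7% held a GC box and 37.4% a CCAAT box, and both are common. The TATA box (TATAAA) was in none of the windows shown and in 13.6% of all. The E-box searched (CACGTG) was in none of them and in 7.15% of all. The M-box (TCATGTG), a motif of pigment cell genes, was in none of them and in 3.77% of all. None of the marked motifs overlapped another. The windows of Slc4a4 are called upstream and downstream relative to each other. Both lie inside the span given for the gene, and neither covers its 5′ end. They differ in composition, with 80% of G and C upstream and 48.3% downstream, against 62.7% for Aqp1 and 71% for Atp1b1. No motif match bears on the factors that act there.

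Of the 21 probe sets, 16 exceeded the floor of 1 array or more and 12 of all 3. By representing probe set, Aqp1, Car2, Slc4a4, Slc12a2 and Atp1b1 were above the floor on all 3 arrays, Aqp4 in CBPE alone, and Car12 on none.

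**Figure D1:**
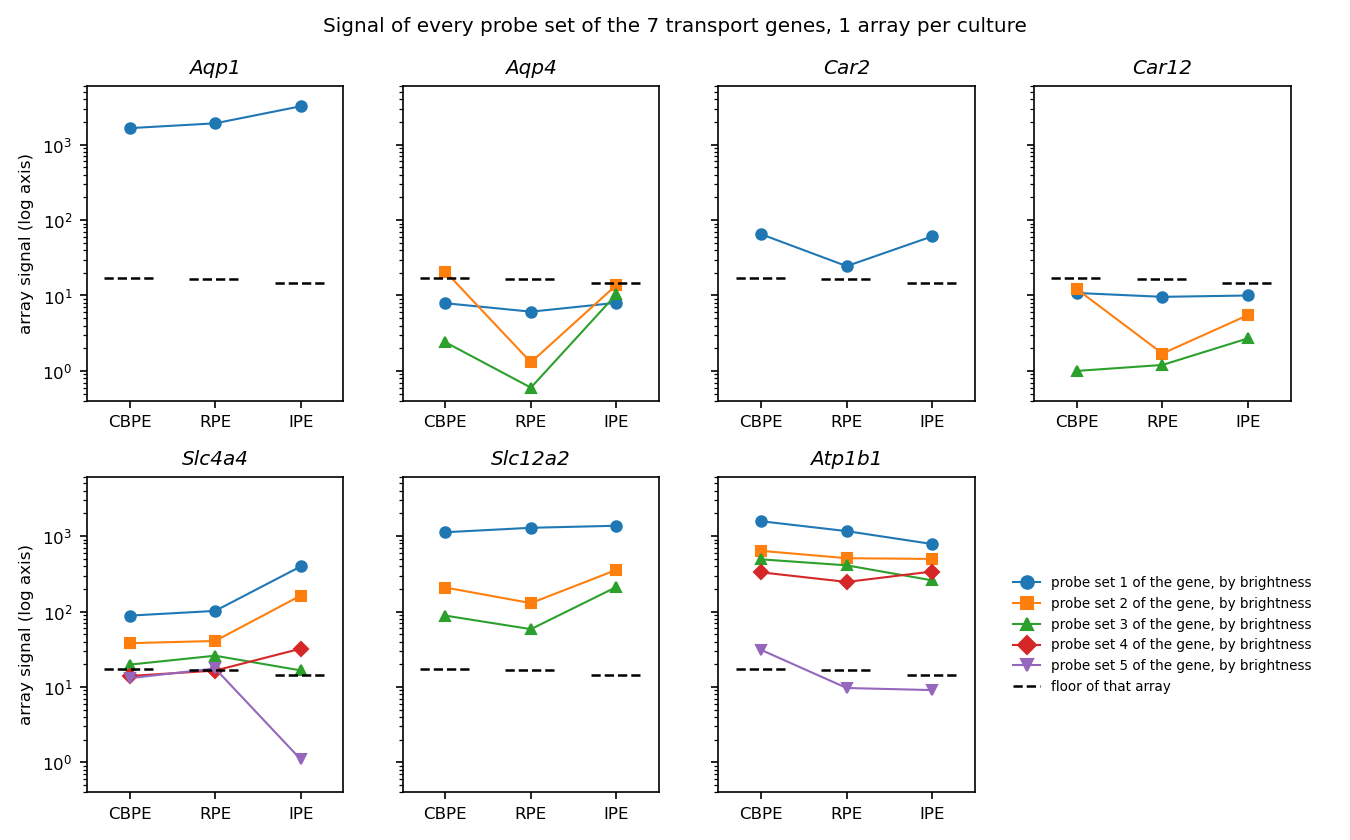
Signal of all 21 probe sets of the 7 genes (log axis) in CBPE, RPE and IPE, 1 array each, with dashed lines at the floor of each array. Aqp1, Slc12a2 and Atp1b1 have probe sets far above the floors, Slc4a4 is clearly brightest in IPE by its 2 brightest sets, and every Car12 set lies under the floor.

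Slc12a2 encodes the sodium-potassium-chloride cotransporter that loads chloride into the pigmented layer. Its representing probe set gave a signal of 1128.1 in CBPE, 1292.3 in RPE and 1374.6 in IPE. These are nearly level, with log2 differences of -0.29 for CBPE minus IPE, -0.20 for CBPE minus RPE and -0.09 for RPE minus IPE, all within the probe set SD. The other sets of Slc12a2 separated the cultures more. A dimmer set gave 208.5 in CBPE, 129.5 in RPE and 357.7 in IPE, and the dimmest gave 88.4, 58.5 and 212 in the same order of cultures. All 3 sets were highest in IPE. CBPE was 1.72-fold and 2.40-fold below IPE by the dimmer sets and 1.61-fold and 1.51-fold above RPE, where the representing set had CBPE 1.15-fold below RPE. RPE was 2.76-fold and 3.62-fold below IPE by the dimmer sets. The annotation gives the 3 sets 1 shared sequence record, and their places along the transcript were not used here. The Actb and Gapdh ratios of 3′ to 5′ signal were lowest in IPE, with Gapdh at 1.23 in CBPE, 1.25 in RPE and 0.940 in IPE, and their part in the disagreement was not tested.

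Slc4a4 encodes the electrogenic sodium-bicarbonate cotransporter, which carries bicarbonate across ocular epithelia. Its representing probe set gave 88.4 in CBPE, 102.1 in RPE and 396.4 in IPE. CBPE and RPE lay close together, 1.15-fold apart with RPE the higher, and IPE stood above both. CBPE was 4.48-fold lower than IPE (log2 difference -2.16) and RPE 3.88-fold lower than IPE (-1.96). A second probe set repeated this, at 38.1 in CBPE, 40.8 in RPE and 162.7 in IPE, which is 4.27-fold lower in CBPE and 3.99-fold lower in RPE than in IPE. The remaining 3 sets of Slc4a4 lay near the floors, and 2 of them ranked the cultures differently, with RPE highest. One kept the order of the brighter sets, with 14 in CBPE, 16.5 in RPE and 32.2 in IPE, above the floor in IPE alone. Another gave 19.8, 26 and 16.6 and had RPE highest, and the dimmest gave 13.1, 17.6 and 1.1. Averaging all 5 sets brings CBPE minus IPE to -0.93 and RPE minus IPE to -0.79, both under the 2-fold limit. The table of starts lists 2 for this gene, and which transcript each probe set reads was not tested.

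Car2 encodes a cytosolic carbonic anhydrase of ciliary and retinal epithelia, of red blood cells and of osteoclasts. Its single probe set gave 64.9 in CBPE, 24.5 in RPE and 60.9 in IPE. CBPE and IPE were nearly equal at 1.07-fold, and RPE was lower than both. CBPE was 2.65-fold above RPE (log2 difference 1.41), and RPE was 2.49-fold below IPE (-1.31). The RPE floor of 16.8 is not far under that signal, which makes both folds imprecise. None of the 5 red blood cell markers with a probe set was above the floor on any array, with summed signals of 13.1 in CBPE, 18.4 in RPE and 15.6 in IPE. The 15 macrophage and leukocyte markers summed to 2501.6 in CBPE, 575.2 in RPE and 401.9 in IPE. They set CBPE apart from both others, whereas Car2 was as high in IPE, and their part in the Car2 signal was not tested. Car12, a carbonic anhydrase of the cell surface that is found in the non-pigmented ciliary epithelium, was under the floor on every array by all 3 probe sets. Its brightest set gave 10.8 in CBPE, 9.6 in RPE and 10 in IPE, and the highest of its 9 signals was 12.1 in CBPE. Car12 was therefore not detectable in these cultures, and no fold can be given.

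Atp1b1 encodes the beta subunit that carries the sodium pump to the membrane. Its representing probe set gave 1577.8 in CBPE, 1167.1 in RPE and 786.9 in IPE, with CBPE highest and IPE lowest. CBPE was 2.01-fold above IPE (log2 difference 1.00), at the edge of the 2-fold limit, and 1.35-fold above RPE (0.43). RPE was 1.48-fold above IPE (0.57). CBPE was above RPE by all 5 sets, with log2 differences between 0.26 and 0.88, and above IPE by 4 of 5. The other sets gave 639.3 in CBPE, 510.6 in RPE and 499.1 in IPE, then 493, 410.4 and 259.4, and 31, 9.7 and 9.1. The exception gave 331.3 in CBPE, 247.3 in RPE and 339.8 in IPE, with CBPE and IPE almost level. The dimmest set was above the floor in CBPE alone. Only CBPE against RPE thus keeps its direction over every probe set of Atp1b1 above the floor.

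Aqp1 encodes a water channel of the non-pigmented ciliary epithelium, of corneal endothelium and of blood vessels. Its single probe set gave 1656.6 in CBPE, 1919.2 in RPE and 3229.7 in IPE. IPE was the highest, and CBPE and RPE differed by 1.16-fold (log2 difference -0.21), less than the probe set SD of 0.29. CBPE was 1.95-fold below IPE (-0.96) and RPE 1.68-fold below IPE (-0.75), just under the 2-fold limit. After quantile normalization these were -1.59 and -1.28, both past the limit. With equal array medians they were -1.22, past the limit, and -0.96, short of it. The 12 endothelial markers summed to 1769 in CBPE, 394.9 in RPE and 961.7 in IPE. That order has CBPE highest, unlike Aqp1, but most of each sum came from Emcn alone, at 1114.8, 211.2 and 745.1. In IPE, Kdr, Flt1, Egfl7, Esam and Plvap were also above the floor. Pecam1, Cdh5, Tek, Cldn5 and Tie1 were under it there, and Vwf was under every floor. The 7 non-pigmented ciliary epithelium markers with a probe set summed to 527.2 in CBPE, 994.4 in RPE and 1558.8 in IPE. RPE exceeds CBPE in that sum through Cdh2, a cadherin with 208.2 in CBPE, 715 in RPE and 374.5 in IPE. Among the others only Wfdc1 was highest in CBPE, at 75.8, 40.1 and 46.8 in the same order of cultures. Tgfb2, at 192.4, 179.1 and 622.6, and Atp1b2, at 27.5, 39.5 and 195.1, were highest in IPE. So were Zic1, at 4, 3.9 and 285.2, and Col9a1, at 2.6, 2.6 and 24.3, both above the floor in IPE alone. Opcml was under every floor. Single markers are named here after their values were seen. The part of these cell types in the Aqp1 result was not tested. Aqp4, the water channel of glia and of the non-pigmented ciliary epithelium, was above a floor in 1 of 9 measurements. That probe set gave 20.8 in CBPE, 1.3 in RPE and 13.8 in IPE, barely over the 20.2 that absent bacterial transcripts reached in CBPE. The other sets of Aqp4 stayed between 0.6 and 10.4. Glial markers summed to 946.1 in CBPE, 1884.5 in RPE and 7843.3 in IPE, with most of each sum from Apoe, Glul and Dkk3. Those genes had 3950.2, 2558.2 and 1144.9 in IPE. Gfap, a defining glial gene, had 1.2 in CBPE, 2.9 in RPE and 17.1 in IPE, above the floor in IPE alone.

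**Figure D2:**
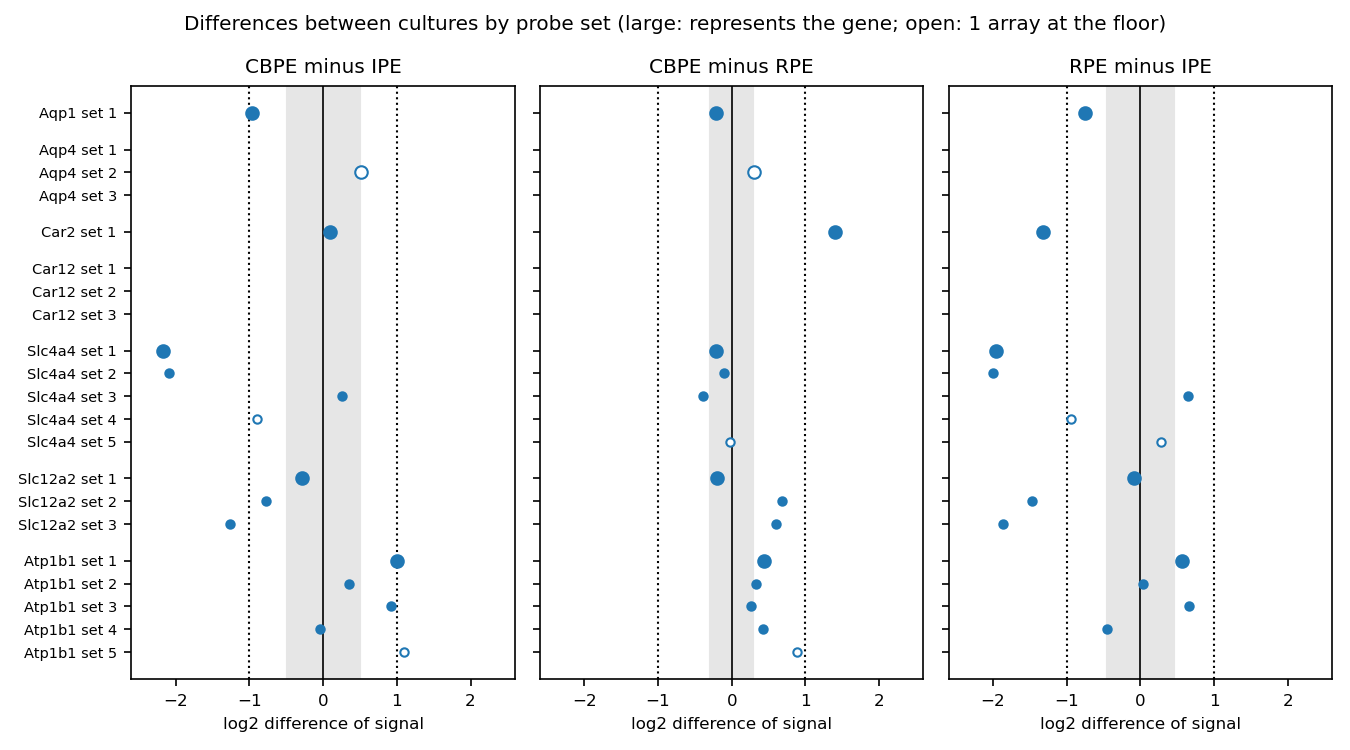
Log2 difference of signal for every probe set that exceeded the floor of either array. Large points represent the gene, open points have 1 array at its floor, the grey band is the probe set SD and dotted lines mark 2-fold. Slc4a4 sets 1 and 2 lie near -2 in both differences from IPE, and the sets of Slc12a2 and Atp1b1 spread across the band.

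Counted by representing probe set, 2 of 6 measured genes differed at least 2-fold between CBPE and IPE, Atp1b1 higher and Slc4a4 lower in CBPE, beside 24.3% of all genes measured (11.8% higher and 12.5% lower). In CBPE against RPE, 1 of 6 did, Car2, higher in CBPE, beside 8.01% of all genes (4.26% higher and 3.75% lower). In RPE against IPE, 2 of 5 did, Slc4a4 and Car2, both lower in RPE, beside 20.3% of all genes (9.87% higher and 10.5% lower). With so few genes, these shares cannot be set apart from the background. The median log2 differences were -0.10, 0.06 and -0.75, against 0.04, 0.00 and 0.02 over all genes. All 3 comparisons use the same 3 arrays, and 2 share the IPE array, so they are not independent of each other.

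With the hybridisation controls made equal, the median of all genes shifted to -1.33 for CBPE minus IPE, -0.72 for CBPE minus RPE and -0.63 for RPE minus IPE, and Atp1b1 in CBPE minus IPE was -0.36, against 1.00 as deposited. Relative to the median of all genes, Atp1b1 in CBPE minus IPE was 0.96 as deposited and between 0.61 and 1.11 over 7 alternatives. Equal medians and equal hybridisation controls shift all genes alike and cannot move such a relative value, so they are not among these. Relative to all genes, Slc4a4 lay between -2.26 and -0.99 in CBPE minus IPE and between -2.02 and -0.83 in RPE minus IPE. Aqp1 lay between -1.73 and -0.91 and between -1.35 and -0.70 in the same comparisons. Car2 stayed between 1.27 and 1.56 in CBPE minus RPE and between -1.38 and -1.11 in RPE minus IPE, over 6 alternatives each. Slc12a2 in CBPE minus RPE took both signs, between -0.27 and 0.36.

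**Figure D3:**
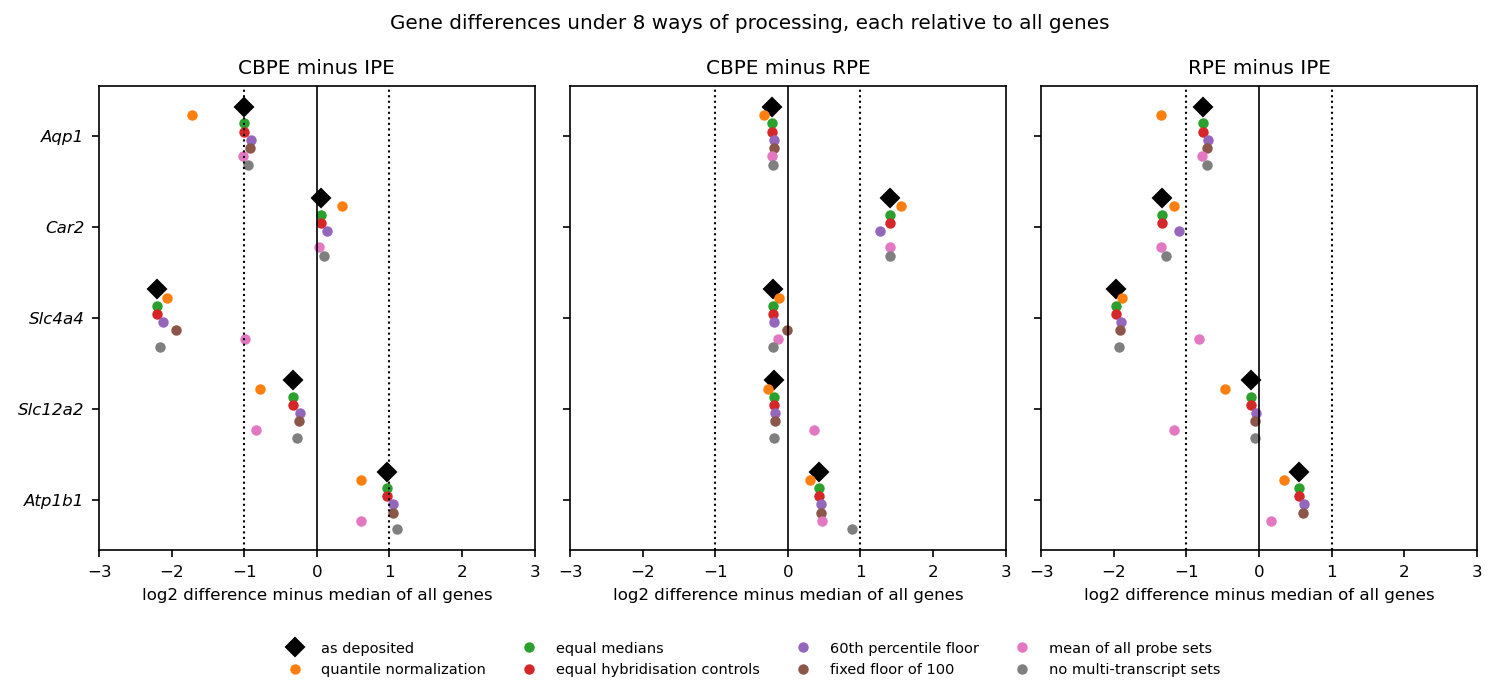
Log2 difference minus the median of all genes for the 5 genes above the floor on all arrays, under 8 ways of processing, with dotted lines at 2-fold, where equal medians and equal hybridisation controls match the deposited value by construction. Slc4a4 stays left of 0 in both differences from IPE, Car2 stays apart in both differences with RPE, and Slc12a2 moves most when all its probe sets are averaged.

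The genes with the most similar pattern over the 3 arrays were found by the distance between centred log2 signals among 10243 other genes that exceeded all 3 floors. Nearest to Slc4a4 were Wnt5a (184.2 in CBPE, 206.1 in RPE and 790.3 in IPE) and Nampt (222.7, 249.3 and 944), with 44 genes within a distance of 0.25. Inhbb was among the nearest to Car2, at 64.1, 24.7 and 62.6 in the same order, with 33 genes within that distance. Rassf4 and Neu1 were nearest to Aqp1, Procr and Rgs19 to Atp1b1, and Kctd18 and Eif2s3x to Slc12a2. As many as 673, 473 and 1445 genes lay within 0.25 of Aqp1, Atp1b1 and Slc12a2, so with 3 values a close match is common. The other neighbour of Car2 is known only by a clone name.

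The wider set of 11 lists for ocular ion and water transport named 180 genes, of which 160 had a probe set and 117 exceeded the floor of 1 array or more. In CBPE minus IPE, 20 of 112 with a value were higher past 2-fold and 15 lower, 31.3% in all, with a median of 0.04. In CBPE minus RPE, 14 of 110 were higher and 3 lower, 15.5% in all, with a median of 0.11. In RPE minus IPE, 8 of 103 were higher and 18 lower, 25.2% in all, with a median of -0.18. The shares over all genes are those given above, for these counts and for those of the single lists below. The lists share genes with the 7.

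**Figure D4:**
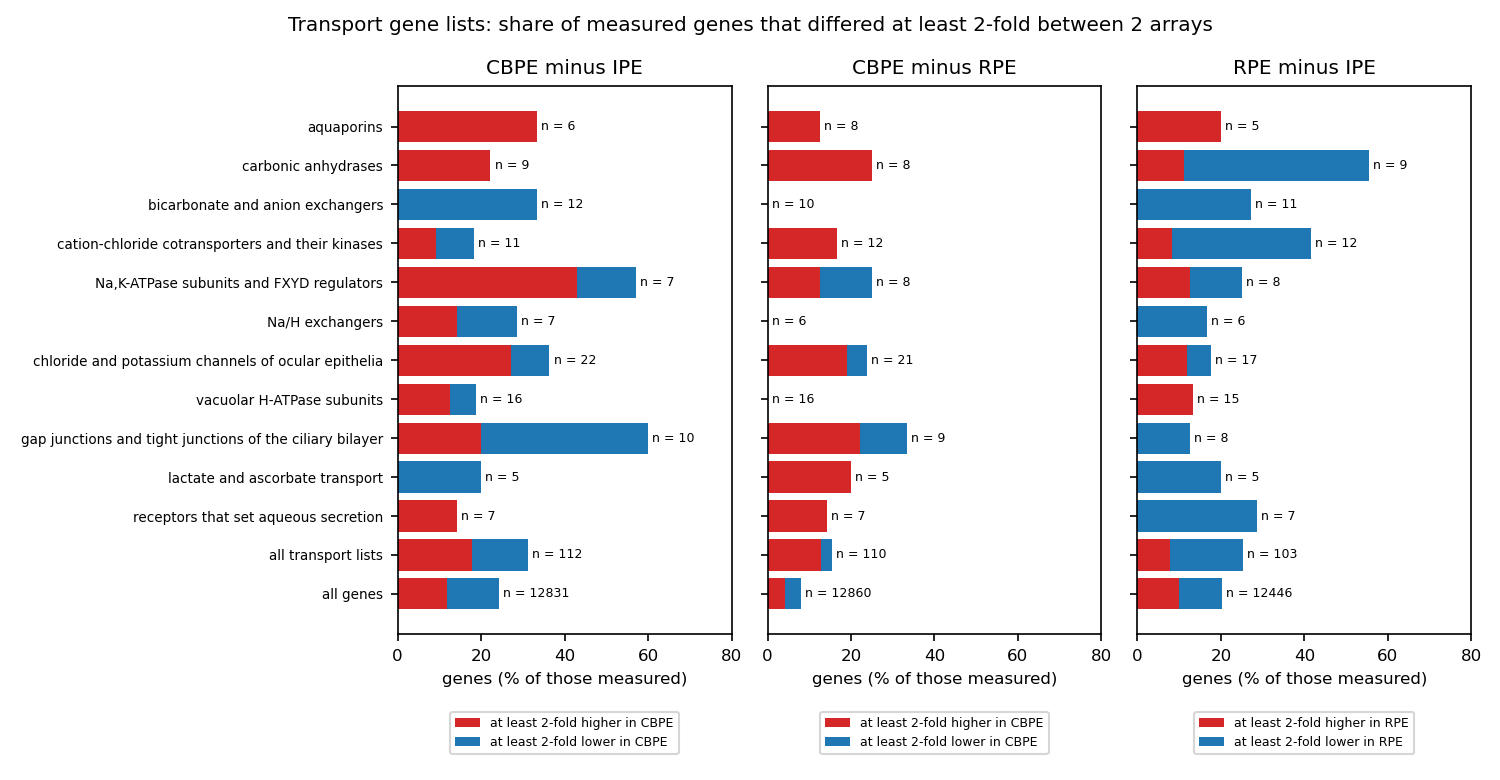
Share of measured genes in each transport list that were at least 2-fold higher (red) or lower (blue), with n the number measured, and the same over all transport genes and all genes. Bicarbonate and anion exchangers, Slc4a4 included, are blue alone in both differences from IPE and empty in CBPE minus RPE.

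On the list that holds Slc4a4, 4 of 12 measured bicarbonate and anion exchangers were lower in CBPE than in IPE, beside 12.5% of all genes. In RPE 3 of 11 were below IPE, beside 10.5%. Slc4a4 itself is among the 4 and among the 3. None of 10 differed 2-fold between CBPE and RPE, beside 8.01% of all genes. Counts this small cannot be set apart from these shares. Slc4a5, another sodium-bicarbonate cotransporter, had 14.6 in CBPE, 24.4 in RPE and 93.6 in IPE. Slc26a7, an anion exchanger, had 74, 80.6 and 225.8, and the sulfate transporter Slc26a2 had 68.8, 122 and 180.6. CBPE was at least 4.63-fold, 3.05-fold and 2.62-fold lower than IPE for these 3 genes. RPE was 3.84-fold and 2.80-fold lower than IPE for Slc4a5 and Slc26a7. Slc4a2, the chloride-bicarbonate exchanger that works beside sodium-proton exchange in the pigmented layer, was within 1.39-fold between any cultures, at 442.5, 409.9 and 317.8, and is named after its values were seen.

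Around Slc12a2, 1 of 11 cotransporters and their kinases was higher in CBPE than in IPE, the kinase gene Wnk2, and 1 lower, Wnk3. Stk39, a kinase that activates Slc12a2 by phosphorylation, had 147.2 in CBPE, 66.3 in RPE and 155.2 in IPE. It was thus lowest in RPE, 2.22-fold higher in CBPE than in RPE and 2.34-fold lower in RPE than in IPE. Its relative Oxsr1 had 106.2 in CBPE, 83.8 in RPE and 170.2 in IPE, 2.03-fold below IPE in RPE. Of 12 measured, Stk39 and Slc12a5 were higher in CBPE than in RPE and none lower. In RPE minus IPE, Stk39, Oxsr1, Wnk3 and Slc12a5 were lower and Wnk4, named after its values were seen, was higher. The signals of Wnk2, Wnk3, Wnk4 and Slc12a5 were all under 50, near the floors.

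Among carbonic anhydrases, Car6 and Car9 were higher in CBPE than in IPE, of 9 measured, and Car2 and Car9 higher in CBPE than in RPE, of 8 measured, with none lower in either. Car9, a cell surface form induced by hypoxia, had 36.8 in CBPE, 4.3 in RPE and 17.4 in IPE. In RPE minus IPE, 1 of 9 was higher and 4 were lower. Car13, a cytosolic form, was the higher one, with 231.5 in RPE and 84.2 in IPE, and 164.8 in CBPE. Car14, a membrane form of retinal pigment epithelium and glia, had 86.7 in CBPE, 54.2 in RPE and 120.6 in IPE, 2.23-fold below IPE in RPE. Car2, Car11 and Car5b were the others, Car5b being named after its values were seen. Of the 12 aquaporins, 8 were above the floor anywhere. Aqp12 and Aqp2 were higher in CBPE than in IPE, of 6 measured. Their highest signals were 37.8 and 34.3, both in CBPE. Among the 12, no representing signal other than those of Aqp1 exceeded 39.4, that of Aqp5 in RPE, which is named after its values were seen.

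The sodium pump list divided by subunit. Of 7 measured in CBPE minus IPE, Atp1b1, Fxyd5 and Fxyd6 were higher and Atp1b2 was lower. Atp1b2, a beta subunit of glia and of the non-pigmented ciliary epithelium, had 27.5 in CBPE, 39.5 in RPE and 195.1 in IPE. It was 7.09-fold lower in CBPE and 4.94-fold lower in RPE than in IPE, by both of its probe sets in direction. Atp1b3, the remaining beta subunit measured and named after its values were seen, had 1290.8 in CBPE, 1631.3 in RPE and 2512.4 in IPE, 1.95-fold lower in CBPE than in IPE. The beta subunits thus ran in opposite orders, with Atp1b1 highest in CBPE and Atp1b2 and Atp1b3 highest in IPE. With equal hybridisation controls Atp1b1 was no longer highest in CBPE. Fxyd5, a pump modulator, had 292.8 in CBPE, 114.9 in RPE and 79 in IPE, 3.71-fold higher in CBPE than in IPE. Fxyd6 had 39.3 in CBPE, 139.9 in RPE and 15.6 in IPE, 8.97-fold higher in RPE than in IPE, on an IPE signal close to the floor of 14.5. Of 8 measured in CBPE minus RPE, Fxyd5 was higher and Fxyd6 lower.

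Among channels and junctions some genes set the CBPE culture apart, whereas Gja1 and Tjp1 were highest in IPE. Lrrc8a, the essential subunit of the volume-regulated anion channel, had 529.9 in CBPE, 251 in RPE and 260.1 in IPE, 2.11-fold above RPE and 2.04-fold above IPE. Kcne3, a potassium channel subunit, had 101.3 in CBPE, 1.5 in RPE and 3.9 in IPE. It was higher in CBPE by at least 6.03-fold over RPE and by at least 6.99-fold over IPE. The chloride-proton exchanger gene Clcn3 had 49 in CBPE, 114.2 in RPE and 183.3 in IPE, 2.33-fold and 3.74-fold lower in CBPE, yet only 2 of its 5 probe sets put CBPE below RPE. Gja1, connexin 43, the gap junction protein that couples the ciliary layers, had 1696.9 in CBPE, 2180.5 in RPE and 3474.9 in IPE, 2.05-fold lower in CBPE than in IPE. Tjp1, a tight junction scaffold, had 426.2 in CBPE, 345.8 in RPE and 938.8 in IPE. Of 22 channels measured in CBPE minus IPE, 6 were higher and 2 lower, and of 10 junction genes 2 were higher and 4 lower. Cldn5, one of the junction genes higher in CBPE, is also an endothelial marker, and had 79.1 in CBPE, 2.3 in RPE and 11.6 in IPE.

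Of 16 vacuolar proton pump subunits measured in CBPE minus IPE, Atp6v0e and Atp6v1h were higher and Atp6v1b2 lower, beside 24.3% of all genes. Of 16 in CBPE minus RPE none passed 2-fold, beside 8.01%. Of 15 in RPE minus IPE, Atp6v0e and Atp6v1h were higher by 2.23-fold and 2.05-fold, beside 20.3%. Atp6v0e had 3340.8 in CBPE, 2739.2 in RPE and 1227 in IPE. Slc9a3r2, a scaffold of sodium-proton exchangers, had 73.4 in CBPE, 51 in RPE and 152.7 in IPE, 2.08-fold and 2.99-fold lower in CBPE and RPE than in IPE by all 6 probe sets in direction. Slc16a3, which exports lactate, had 222.6 in CBPE, 35 in RPE and 138 in IPE, 6.36-fold higher in CBPE than in RPE. Slc16a1, which moves lactate in either direction, had 401 in CBPE, 522.8 in RPE and 819 in IPE. Of 7 measured receptors and their ligand that set secretion, Avpr1a was higher in CBPE than in IPE, Edn1 higher in CBPE than in RPE, and Edn1 and Ednrb lower in RPE than in IPE. Edn1, endothelin, had 49 in CBPE, 16.8 in RPE and 86.7 in IPE.

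The labelled cell types were checked by their markers. Pigment cell markers summed to 600.8 in CBPE, 1566.4 in RPE and 4792.7 in IPE, and each of the 8 exceeded the floor of 1 array or more. Dct, Pmel and Oca2 were under the floor in CBPE, Oca2 and Slc45a2 in RPE, and Slc45a2 in IPE. Dct had 2 in CBPE, 286.5 in RPE and 1429.1 in IPE. Of 10 retinal pigment epithelium markers 7 exceeded the floor of 1 array or more, and all 10 summed to 310.1, 209.1 and 783.2. On the RPE array itself only Rdh5, Otx2, Trpm1 and Rlbp1 did, Rlbp1 at 17.3 against a floor of 16.8. Best1 and Ttr were above the floor in CBPE alone and Kcnj13 in IPE alone. Rpe65, the defining visual cycle gene, had 1, 2.4 and 1 by its single probe set and was not detectable on any array. The keratin gene Krt18 had 422.4 in CBPE, 218.6 in RPE and 144.1 in IPE, while Krt19 had 25.8, 2.2 and 39.9 and Cdh1, the epithelial cadherin, was under the floor on every array. Corneal endothelium markers summed to 5119.6 in CBPE, 5723 in RPE and 3419.2 in IPE, with most of the sum from the collagen genes Col8a1 and Col8a2, and Tjp1 on that list was highest in IPE. Their part in the Aqp1 and Slc4a4 signals was not tested. Slc4a11, a transporter of that cell layer on the list, was level at 42.3, 42.4 and 45.2. The sums of fibroblast markers lay between 28216.8 and 55856.8 and those of smooth muscle markers between 12950.4 and 28946.9, both lowest in IPE and highest in CBPE. Simple epithelium markers, of which Krt18 is the brightest, summed to 665.6 in CBPE, 399.2 in RPE and 308.3 in IPE, lens markers to at most 79.4 on any array, and skeletal muscle markers to 751.8 in RPE against at most 158.2 elsewhere.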

How the data were processed

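RNA of 3 primary cultures was hybridised to 1 biotin-labelled array each. The labels' protocols give 1 µg of total RNA as input to reverse transcription and Affymetrix reagents for the labelling. The deposited values are linear intensity values for 45101 probe sets, of which 64 are controls, and no source used here names the software. Those intensity values had been scaled before they were deposited: the 2% trimmed mean was 100.001 on every array. Of 35890 annotated probe sets, 34958 had 1 gene and 932 several, which were not named, and 9160 more were unlisted. The annotation dates from 2016 and was updated through gene identifiers to RefSeq of GRCm38.p6. Control probe sets that name a gene were left out of the gene table.

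Signals were floored, log2 taken and differences counted as the report states. The probe set SD pools genes with at least 2 sets above 100 on both arrays, 1666, 1693 and 1773 genes for CBPE minus IPE, CBPE minus RPE and RPE minus IPE. Array data have no counting depth, and the number of arrays limits the precision. No test was made. The members, the 11 transport lists, the 13 marker lists and the rules were chosen with earlier results of these data known. Named are all 7 genes, up to 4 genes per transport list and comparison past 2-fold by mean signal, up to 3 per marker list and the 2 nearest patterns. The text adds defining markers of a list after seeing values. Alternatives changed the scaling, the floor, the probe set rule and the fold limit. The counting rule was checked on simulated data. Python 3.11.15, numpy 2.4.6, pandas 2.3.3 and matplotlib 3.10.9 were used.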

Additional observations from a re-analysis of the deposited data

How the results depend on the processing

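The main counts of genes at least 2-fold different were 2, 1 and 2 among the 7 genes and 35, 17 and 26 among the transport lists, for CBPE minus IPE, CBPE minus RPE and RPE minus IPE. Of the recomputed counts, 40 stayed within 1.5 times the main count and 26 did not. A count can stay the same while its genes change. In CBPE minus IPE the 7 genes still gave 2 after quantile normalization and with equal medians, but 0 higher and 2 lower. Atp1b1 was then 0.74 and 0.75, short of the limit, and Aqp1 was -1.59 and -1.22, past it. With the mean of all probe sets RPE minus IPE still gave 2, with Slc12a2 at -1.14 past the limit and Slc4a4 at -0.79 short of it. With equal hybridisation controls the 7 genes gave 4 of 6 measured and 0 of 6 in the first and second comparison. Under that scaling the lists gave 74 of 112, 32 of 110 and 43 of 103, beside 67.4%, 29.2% and 34.7% of all genes. There Atp1b1 was -0.36 in CBPE minus IPE, against 1.00 as deposited, -0.28 in CBPE minus RPE, against 0.43, and -0.08 in RPE minus IPE, against 0.57, while the medians of all genes moved to -1.33, -0.72 and -0.63. A floor at the 60th percentile gave 23 of 93 list genes for CBPE minus IPE, beside 23.1% of all genes. For RPE minus IPE it gave 17 of 82, beside 19.8%. A fixed floor of 100 left 0 of the 7 genes in CBPE minus RPE and 1 in RPE minus IPE, with 4 measured in each. Fewer list genes were measured too, and 11 of 53, 3 of 49 and 6 of 53 differed, beside 20.0%, 3.83% and 16.4% of all genes. With no floor the lists gave 75 of 157, 56 of 158 and 60 of 157, beside 39.6%, 27.7% and 35.6% of all genes. The mean of all probe sets gave 0 of the 7 genes and 23 of 114 list genes in CBPE minus IPE, beside 17.1% of all genes. A 1.5-fold limit gave 56 of 112, 35 of 110 and 48 of 103 list genes, beside 47.7%, 26.0% and 43.8% of all genes. A 3-fold limit gave 1, 0 and 1 of the 7 genes. It gave 9, 5 and 7 list genes of the same numbers measured, beside 9.06%, 1.87% and 6.59% of all genes. Apart from the constructions named, the cause of these shifts was not tested. Of the recomputed differences of single genes, 120 moved by less than the probe set SD and 24 by more, and that of Atp1b1 in CBPE minus IPE was the 1 past 2-fold as deposited that turned its sign. Equal medians moved the split of all genes in CBPE minus IPE to 945 higher and 2369 lower, and quantile normalization to 1710 and 1222, against 1513 and 1609 as deposited. No paired analysis was possible because each culture has 1 array and the labels carry no replicate numbers. Signals up to 20.2 in CBPE, 16.6 in RPE and 7.9 in IPE were reached by absent transcripts, which limits Aqp4, Car12 and the dim probe sets of Slc4a4.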
